A study of Arabidopsis thaliana with 5 samples.

Results

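Most annotated pseudogenes and transposon-derived features of the Arabidopsis genome lie in the pericentromeres, but a minority is scattered along the gene-rich chromosome arms. The features described here are those arm members of a deposited count table. They were taken as every row whose identifier lies outside AT1G33 to AT1G43, AT2G03 to AT2G15, AT3G30 to AT3G47, AT4G03 to AT4G09 and AT5G27 to AT5G36, the identifier ranges of the pericentromeres. This gave 765 of 3903 features, with 215, 104, 192, 96 and 158 on chromosomes 1 to 5, and left 3138 pericentromeric ones. In the RefSeq annotation of TAIR10.1, 763 of the 765 are pseudogenes, 2 (MUG3 and MUG7) are protein coding, and 19 have a symbol. The annotation text names a transposon class for few of them, and protein matches bear on the name for only part of them: 522 matched an annotated protein, 117 of these outside the transposon-related groups used below, and 243 matched none.

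RNA was sequenced from Arabidopsis thaliana leaf epidermal protoplasts of wild type (WT, 3 libraries) and of hdl (2 libraries), a mutant of HOMEODOMAIN-LIKE given as the single allele hdl-1. Plants of both genotypes carried the AtML1pro:RCI2A-mCherry reporter, a red membrane marker under a promoter known for epidermal activity. Seeds spent 2 days in the cold, seedlings grew on MS medium in long days and were used at 9 days post germination, and about 20000 mCherry-positive cells were collected per sample by fluorescence-activated sorting. The TruSeq kit was used on 10 to 20 ng of total RNA, and each of the 5 libraries is labelled batch 1. It is not stated whether replicates are separate plantings or sorts. A p-value here thus reflects spread between samples that may be purely technical. Reads of the HDL gene were not analysed here.

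Transposons are mobile DNA elements. DNA transposons such as the Mutator, hAT and CACTA (En/Spm) superfamilies encode a transposase, while retrotransposons move through an RNA copy made by reverse transcriptase and ribonuclease H. Plants silence them with DNA methylation, which is kept by methyltransferases such as MET1 and CMT3 and placed by RNA-directed DNA methylation, in which small RNAs made from transcripts of RNA polymerase IV guide the methyltransferase DRM2. Some transposases have been domesticated: the MUSTANG (MUG) genes derive from Mutator elements, and DAYSLEEPER and CYTOSLEEPER from hAT elements. ONSEN, a copia-type retrotransposon, is known for its activation by heat, and EVADE for its mobility when methylation is lost.

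The windows of 250 bases before to 50 bases after the annotated start are printed for 8 features, 5′ to 3′ on the feature's strand, from the RefSeq genome of TAIR10.1. The first 3 are ONSEN copies, shown because near-identical copies differed in their reads, and capitals mark TGGTATCAGAGC, a primer binding site, where a methionine tRNA primes reverse transcription of many plant retrotransposons. A script derived it as the complement of the 3′ end, CCA included, of 8 of the 23 annotated nuclear methionine tRNA genes.

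AT5G13205, chr5:4212542-4212841, minus strand: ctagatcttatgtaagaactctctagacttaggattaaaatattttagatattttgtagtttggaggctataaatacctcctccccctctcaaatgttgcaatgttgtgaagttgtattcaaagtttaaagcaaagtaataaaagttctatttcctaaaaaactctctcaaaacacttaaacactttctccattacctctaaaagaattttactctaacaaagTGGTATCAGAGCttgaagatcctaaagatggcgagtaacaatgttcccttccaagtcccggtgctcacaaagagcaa

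AT3G61330, chr3:22700002-22700301, minus strand: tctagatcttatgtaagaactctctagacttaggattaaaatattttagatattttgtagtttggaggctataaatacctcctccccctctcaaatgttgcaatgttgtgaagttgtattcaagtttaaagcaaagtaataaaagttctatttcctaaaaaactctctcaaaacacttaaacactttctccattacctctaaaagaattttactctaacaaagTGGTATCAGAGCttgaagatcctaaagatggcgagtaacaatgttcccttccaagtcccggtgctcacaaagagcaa

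AT1G21945, chr1:7717576-7717875, plus strand: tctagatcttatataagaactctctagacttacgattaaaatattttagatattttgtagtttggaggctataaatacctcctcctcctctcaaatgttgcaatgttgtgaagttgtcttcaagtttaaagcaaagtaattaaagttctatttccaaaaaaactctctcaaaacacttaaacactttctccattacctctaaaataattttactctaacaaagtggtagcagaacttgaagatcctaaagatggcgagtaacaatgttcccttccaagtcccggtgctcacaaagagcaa

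The next 4 belong to features whose levels separated the genotypes most clearly or in every library, and MUG1 follows as an abundant domesticated gene. Capitals mark TATAAA and TGGGCC on either strand in AT1G20390 and MUG1, and TATAAA on the opposite strand alone in SADHU1-2. They mark GAANNTTC in AT4G21420, and GAANNTTC and TGGTATCAGAGC in AT2G17490.

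AT1G20390, chr1:7065244-7065543, plus strand: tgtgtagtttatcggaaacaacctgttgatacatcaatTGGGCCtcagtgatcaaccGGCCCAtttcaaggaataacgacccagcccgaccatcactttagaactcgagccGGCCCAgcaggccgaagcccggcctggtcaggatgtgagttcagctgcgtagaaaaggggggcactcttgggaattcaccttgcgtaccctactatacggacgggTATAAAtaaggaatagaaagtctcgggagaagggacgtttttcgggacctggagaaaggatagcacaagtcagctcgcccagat

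AT4G21420, chr4:11405562-11405861, plus strand: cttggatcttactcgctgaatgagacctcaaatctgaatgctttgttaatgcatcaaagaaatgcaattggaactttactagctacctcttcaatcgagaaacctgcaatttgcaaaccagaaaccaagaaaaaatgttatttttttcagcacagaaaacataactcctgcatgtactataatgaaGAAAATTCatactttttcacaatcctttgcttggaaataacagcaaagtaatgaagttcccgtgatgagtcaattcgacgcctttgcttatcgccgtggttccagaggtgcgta

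SADHU1-2 AT1G30835, chr1:10966657-10966956, plus strand: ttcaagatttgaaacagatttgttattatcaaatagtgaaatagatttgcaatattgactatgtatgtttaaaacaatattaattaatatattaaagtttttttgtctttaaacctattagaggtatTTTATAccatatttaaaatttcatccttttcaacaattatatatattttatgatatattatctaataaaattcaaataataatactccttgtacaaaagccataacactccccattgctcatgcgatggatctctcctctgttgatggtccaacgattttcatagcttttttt

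AT2G17490, chr2:7602072-7602371, minus strand: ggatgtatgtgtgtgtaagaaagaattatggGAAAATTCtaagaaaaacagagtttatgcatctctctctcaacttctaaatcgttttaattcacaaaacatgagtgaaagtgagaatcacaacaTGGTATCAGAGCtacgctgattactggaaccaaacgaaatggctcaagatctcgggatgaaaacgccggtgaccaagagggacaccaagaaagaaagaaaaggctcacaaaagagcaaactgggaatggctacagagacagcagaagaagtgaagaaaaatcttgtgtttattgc

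MUG1 AT3G04605, chr3:1246419-1246718, plus strand: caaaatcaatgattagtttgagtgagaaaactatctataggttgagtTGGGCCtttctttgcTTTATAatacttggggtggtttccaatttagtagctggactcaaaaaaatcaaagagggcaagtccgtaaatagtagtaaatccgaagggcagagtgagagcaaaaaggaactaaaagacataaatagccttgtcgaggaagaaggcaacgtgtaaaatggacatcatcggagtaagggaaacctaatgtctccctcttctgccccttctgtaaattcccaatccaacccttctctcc

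TGGTATCAGAGC, searched on the feature's own strand, was in 93 of the 765 arm windows (12.2%), in 4.11% of pericentromeric windows and in 0.0083% of the windows of 24108 genes of the gene table. It was in 70 of the 122 arm features whose best protein match was AT4G23160 (57.4%) and in 9 of 30 with a copia or Gag-Pol match, but in 0 of 60 with a Mutator, 0 of 28 with a hAT and 0 of 82 with a ribonuclease H match. AT4G23160 is named a cysteine-rich receptor-like kinase in RefSeq, and it was also the best match of all 7 ONSEN copies on the arms, of EVADE and of RE2, an annotated copia-type element. In the ONSEN copies AT5G13205 and AT3G61330 the site began 27 bases before the annotated start. It was present in 6 of the 7 copies, and the window of AT1G21945 held no exact match.

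Other motifs were searched on both strands and counted whether or not they overlapped another motif. TATAAA, the TATA box, was in 39.9% of arm windows and 51.8% of gene windows. TGGGCC, part of elements that TCP factors bind, was in 4.97% and 17.0%. GAANNTTC, a unit of heat shock elements, was in 9.41% and 11.6%, and in 0 of the 7 ONSEN windows. The windows of the other ONSEN copies are 96.3 to 99.3% identical to that of AT5G13205, so they are not separate observations. Sequence farther than 250 bases before the annotated start was not searched, so the motif may lie elsewhere in these elements. The L1 box, TAAATGCA or TAAATGTA, which ATML1 and related homeodomain factors bind, was in 4.97% and 5.16%, and CACGTG, the G-box, was in 2.48% and 8.24%. A match describes these letters only.

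The gene table held 15418154 to 22838239 reads per library, against 15120 to 31489 counts on all arm features together. Levels are therefore given as counts per 1000000 gene-table reads (CPM), scaled with the TMM factors of that table, so that 3 reads in a library stand for 0.117 to 0.187 CPM. In hdl replicate 1, 0 of 549 features above 0 had an odd count, against 423 to 585 in the other libraries, and its counts were taken as 2 per read. It also held 6 ambiguous reads in the raw table, against 139 to 363 in the other libraries, and whether it was counted with other settings is not stated, which touches every value of it below. Of 5 epidermal markers 3 were called higher in hdl by limma with Benjamini-Hochberg adjustment, against 8.21% of 20391 genes called higher and 4.5% called lower. Their summed normalized counts were 17762 to 19268 in WT and 44547 to 50779.7 in hdl. Of 4 mesophyll markers 1 was called higher, with sums of 272140.0 to 390726 in WT and 518604 to 549695 in hdl, and of 4 vascular markers 3 were called lower, with sums of 40812 to 65070.0 and 18934 to 20717. Single markers did not all follow these sums: CAB3 was at 51423 ± 7621 (SD, n = 3) in WT and 38294 ± 1852 (SD, n = 2) in hdl. PDF1, SUC2 and ATML1, whose promoter drove the reporter, overlapped between genotypes. LTP1 weighed most in the epidermal sum in hdl, at 6088 ± 1748 in WT and 29182 ± 2489 in hdl (SD). Without hdl replicate 1 limma called 0 of these markers and 0 of all genes, with 4006 genes at an unadjusted p under 0.05. Markers of all 3 cell types were thus detected in the sorted cells, and their part in the results below was not tested.

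A count in at least 1 library was found for 437 of the 765 arm features (57.1%) and for 1287 of 3138 pericentromeric features (41.0%). At least 5 reads in at least 2 libraries, the filter for testing, were reached by 152 arm features (19.9%) and 88 pericentromeric ones (2.80%). No read was counted for 328 arm features, and 105 were above 0 in every library. Levels were steeply graded: 83 arm features had a mean of at least 1 CPM, 25 of at least 10 and 2 of at least 100. The 10 most abundant held 53.6 to 54.7% of arm counts in WT and 51.7 to 52.0% in hdl, and AT3G60930 alone held 15.3 to 18.4%.

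The share of features with reads varied with the number of copies and with the distance to genes. Of 346 arm features with no other copy among the 3903, at 80% identity over 50% of the length, 75.1% had a count, and of 93 with at least 10 other copies 26.9% did. The filter was passed by 27.5% of the former and 2.15% of the latter. How reads that fit several copies were counted is not given in the sources used here, so a feature with near copies can lack counts for that reason. A gene of the gene table lay within 500 bases of 57.9% of the arm features that passed and of 17.3% of those that did not, and 23 of the 152 overlapped a gene on the opposite strand. Across the 81 tested features within 500 bases of a tested gene, Pearson's r between the log2 change of the feature and that of the gene was 0.27 and Spearman's rho 0.34, and over 46 features farther away they were 0.13 and 0.20. These are descriptions across features that share the same libraries and scaling. The median log2 change of the near features was -0.76, while that of their neighbouring genes was -0.08.

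The comparison of hdl with WT asks whether arm features are transcribed at another level in the mutant. The summed level was lower in hdl. It was 1166, 1188 and 1230.1 CPM in the WT libraries and 769 and 874 CPM in the hdl libraries. Both hdl libraries lay below all WT libraries, and the means were 1195 ± 32.4 (SD, n = 3) and 821 ± 74.6 (SD, n = 2), a ratio of 0.688. The exact two-sided permutation test gave p = 0.1, the smallest that 3 against 2 libraries allow, so this design cannot reach 0.05. Without the 10 most abundant features the means were 547 ± 12.4 and 395 ± 37.7 CPM. By best protein match, the WT and hdl means were 411 and 246 CPM for the 117 features outside the transposon-related groups. They were 137 and 70.1 CPM for the 243 without a match. For ribonuclease H matches they were 113 and 66.8 CPM, and for AT4G23160 matches 111 and 73.7. Mutator matches had 151 and 135 CPM, hAT matches 168 and 134, and reverse transcriptase matches 82.1 and 80.3. Scaled to the totals of the whole raw count table, hdl replicate 1 had a summed level of 613. This lay within the WT range of 572 to 637 (exact p = 0.4 for the means), and hdl replicate 2 was at 361. With its even feature counts halved and its table total left as it was, hdl replicate 1 was at 307 (exact p = 0.1 for the means). The rest of that total, reads with no feature, ambiguous or of low quality, was also even (37598520, 6 and 2547154). Halving the total as well would leave the level at 613. The total as deposited was 40183058 for 18316092 recovered gene reads in hdl replicate 1. It was 41375551 for 18929251, 34162475 for 15418154 and 49433695 for 22838239 in the WT libraries, and 41903212 for 19741801 in hdl replicate 2. Its relation to the gene reads was thus like that of the other libraries with the total left as it was, and unlike it with a halved total. Which of these applies was not tested further. In these bulk libraries, fewer cells with a transcript and less transcript per cell cannot be told apart.

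**Figure D1:**
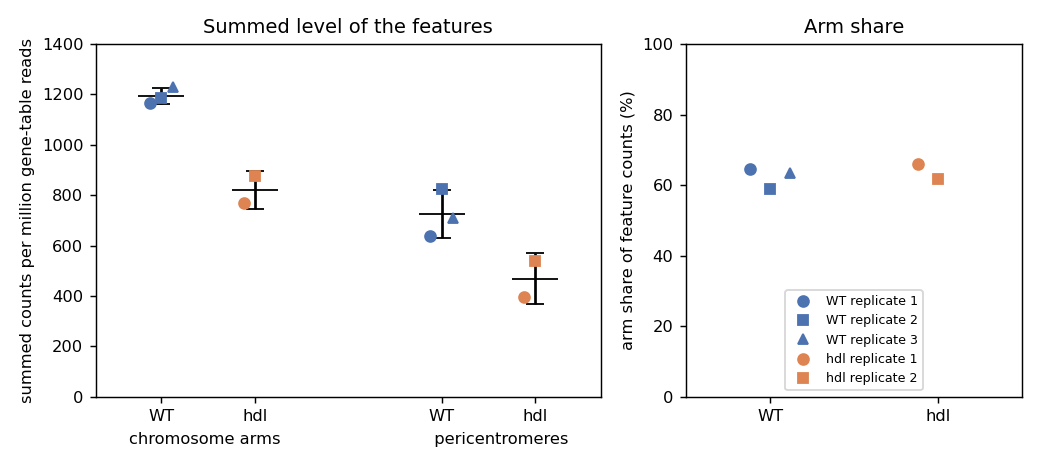
Summed level of the 765 arm features and the 3138 pericentromeric features in each library (left, CPM; horizontal lines with bars are means ± SD) and the arm share of feature counts (right, %). The hdl libraries at 769 and 874 lie below the WT libraries at 1166 to 1230.1 for the arms, while the arm shares of the genotypes overlap.

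Arm and pericentromeric features were lower by similar ratios. The pericentromeric sum was 724 ± 95.5 CPM over the WT libraries and 469 ± 101 over the hdl libraries (SD), a ratio of 0.647. Arm features held 64.7, 59.0 and 63.4% of feature counts in WT, with 95% Wilson intervals of 64.2 to 65.2, 58.5 to 59.5 and 63.0 to 63.8%. They held 65.9 and 61.8% in hdl, with intervals of 65.2 to 66.6 and 61.2 to 62.4%, which cover counting error only. The share differed by 1.51 percentage points between the means (exact two-sided permutation test, p = 0.7). The WT libraries spanned 59.0 to 64.7%, with hdl replicate 2 inside that range and hdl replicate 1 above it. No difference particular to the arms was detectable, and the sign of this small difference turned in several alternatives.

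By chromosome the arm sum was lower in both hdl libraries than in all WT libraries on each of the 5 chromosomes. On chromosome 1 it was 412 ± 30.3 CPM in WT and 250 ± 14.98 in hdl, and on chromosome 5 it was 171 ± 9.50 and 138 ± 18.7 (SD, n = 3 and 2). The exact p was 0.1 for each chromosome.

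No single arm feature was called. Of 152 tested, 0 passed an adjusted p of 0.05 in edgeR's quasi-likelihood test with Benjamini-Hochberg adjustment, as did 0% of all 240 features tested; the smallest adjusted p was 0.186. At an unadjusted p under 0.05 there were 22 (14.5%), of which 20 were lower in hdl, against 13.8% of all tested features. DESeq2 at the same scaling called 6 arm features lower, against 3.75% of the tested features called lower by it. On simulated counts for the 240 features edgeR found 7 of 20 changed 4-fold and 14 of 20 changed 8-fold, with 2 false calls. The simulation gave all features the same dispersion and set no library apart, unlike these hdl libraries, so its rates may not hold here. The median log2 change was -0.73 over the 152 arm features, -0.57 over the 88 pericentromeric ones and -0.71 over all 240. In a fit of features and genes together the genes had a median of -0.09. Below 0 were 113 of the 152 arm features (74.3%).

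Both hdl libraries lay below all WT libraries in 55 of the 152, where 35.4% of all tested features did so, and above them in 8, where 5.42% did. Neither share stands apart from that of all features. Fitted together with the genes, 5 arm features were called lower, namely AT1G20390, SADHU1-2, AT3G10100, AT3G60930 and AT4G21420, against 3.67% of genes and features called lower in that fit; without hdl replicate 1 that fit called 0, with 15 at an unadjusted p under 0.05. With no filter on low counts 8 of 437 arm features were called lower, against 0.812% of 1724.

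**Figure D2:**
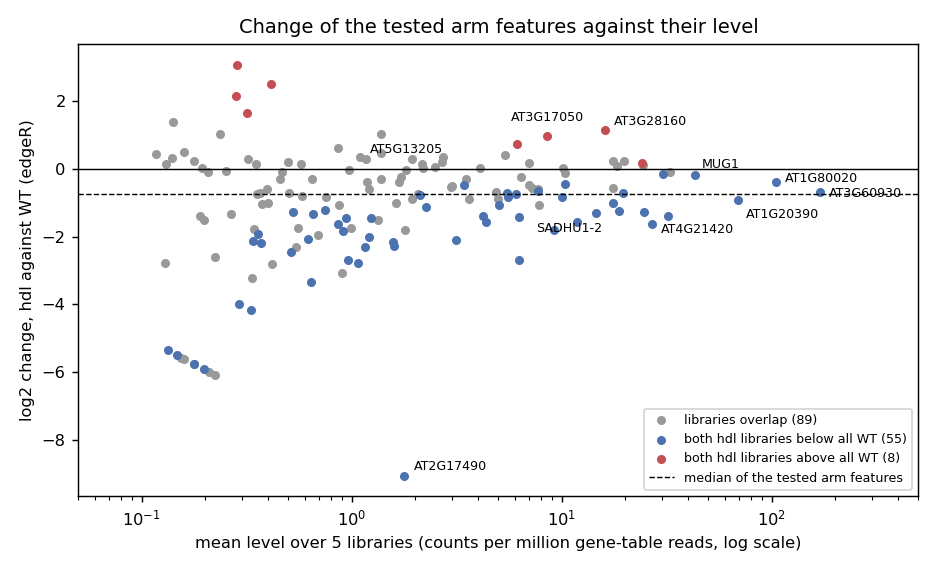
Log2 change between hdl and WT from edgeR (vertical axis) against the mean level over 5 libraries (horizontal axis, CPM, log scale) for the 152 tested arm features. Most points lie below 0, the dashed median is at -0.73, and none passed the threshold of an adjusted p of 0.05; values below about -4 belong to features with few or no reads in hdl and depend on the prior count.

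The hdl libraries were not alike. With edgeR, 7 arm features were called lower without hdl replicate 1, against 5.42% of all tested features. Without hdl replicate 2, 23 were called lower and 2 higher, against 15.4% and 1.25%; in each of these fits the lone hdl library is assumed to vary like the WT libraries. Across tested arm features, Pearson's r of log2(CPM + 1) was 0.974 between WT replicates 1 and 3, 0.922 between WT replicate 2 and each of these, 0.866 between the hdl libraries, 0.913 to 0.942 between hdl replicate 2 and WT, and 0.809 to 0.851 between hdl replicate 1 and WT. Without features that overlap an opposite-strand gene the hdl libraries were at 0.915.

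Of 62 arm features with at least 20 reads in every other library, 8 lay below 5% of the lowest other library in hdl replicate 1, and 0 of 50 to 52 did so in any other library. For example, AT1G55100 had 177, 202 and 224 counts in WT, 0 in hdl replicate 1 and 165 in hdl replicate 2. AT2G24760 had 271, 331 and 383 counts in WT, 2 in hdl replicate 1 and 186 in hdl replicate 2. The others were SADHU6-1, AT3G21050, AT3G29642, AT3G60935, AT5G13205 and AT5G14830. A gene on the opposite strand lay within 500 bases of 6 of the 8 and of 18 of the other 54, and 3 of the 8 and 9 of the 54 overlapped such a gene. Whether the counting of strands bears on this was not tested. Without these 8 features the summed arm level was 1132 ± 29.9 CPM in WT and 798 ± 42.6 in hdl, a ratio of 0.706.

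**Figure D3:**
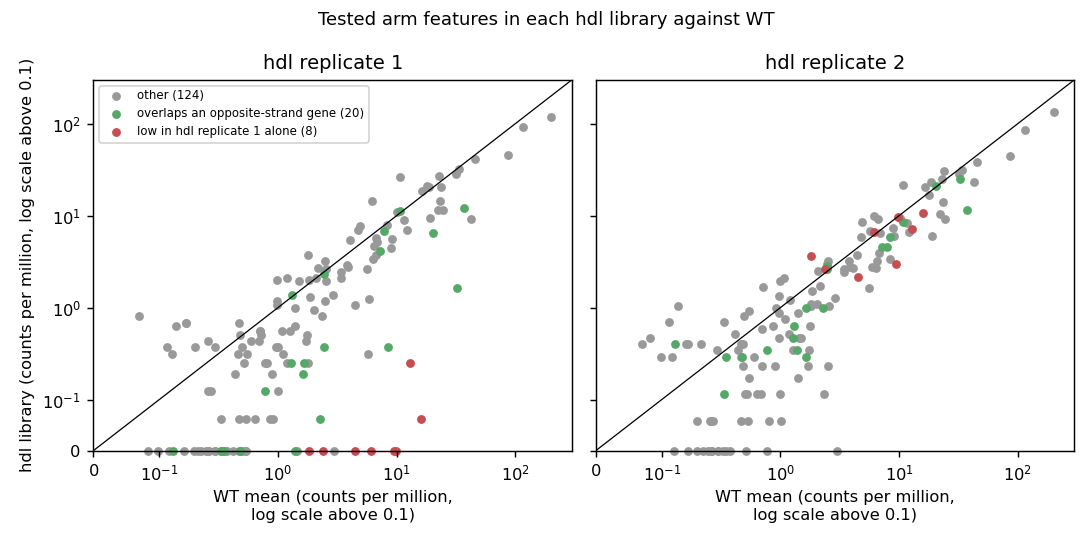
Level of each tested arm feature in hdl replicate 1 (left) and hdl replicate 2 (right) against the WT mean, in CPM (log scale above 0.1, linear below); the line marks equal levels. The 8 red points sit at or near 0 in hdl replicate 1, while in hdl replicate 2 they lie on both sides of the line, from AT3G60935 at 3.01 CPM against a WT mean of 9.48 to AT5G13205 at 3.64 against 1.82.

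Among features that encode or derive from transposases, those of the Mutator and hAT superfamilies were the most abundant. The 7 MUG genes all passed the filter and summed to 127, 139 and 133 CPM in the WT libraries and 125 and 122 in the hdl libraries. Both hdl libraries lay just below WT, at means of 133 ± 6.02 (SD, n = 3) and 123 ± 2.70 (SD, n = 2) (exact two-sided permutation test, p = 0.2). MUG1 (AT3G04605, chr3:1246669-1250395) had 41.5, 47.7 and 46.9 CPM in WT and 41.1 and 38.6 in hdl, so that hdl replicate 1 lay just under WT replicate 1. Its log2 change was -0.19 ± 0.18 (SE, edgeR adjusted p = 0.612), and it was 0.15 and 0.10 when scaled to feature totals or to whole-table totals. With whole-table totals and even feature counts halved it was -0.49. MUG4 (AT5G16505) had 29.8, 40.1 and 30.8 CPM in WT and 31.8 and 31.4 in hdl, which overlap. Per kilobase of exon MUG4 was the highest of the family at 13.8 CPM, followed by MUG1 at 11.6, MUG7 at 7.73 and MUG5 at 7.04, with MUG6 at 2.32, MUG3 at 2.29 and MUG2 at 1.55. Over the 5 libraries the ranges of MUG4 and MUG1 overlapped, as did those of MUG7 and MUG5 and those of MUG6, MUG3 and MUG2, while MUG1 lay above MUG7 and MUG5 above MUG6 in every library.

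AT1G80020 (chr1:30100473-30103899, minus strand), the second most abundant arm feature, matched DAYSLEEPER best at 49.8% amino acid identity. It had 114, 106 and 127 CPM in WT and 92.2 and 84.8 in hdl. Both hdl libraries lay below WT, with a log2 change of -0.39 ± 0.15 (SE; edgeR adjusted p = 0.342). CYTOSLEEPER (AT1G15300) was at 8.77, 4.66 and 7.11 CPM in WT and 5.18 and 6.48 in hdl, and the genotypes overlapped. AT3G14800, another DAYSLEEPER match, had 20.5, 24.5 and 23.8 CPM in WT and 26.6 and 24.7 in hdl. It is among the 8 features with both hdl libraries above WT, but by a log2 change of 0.16 (edgeR adjusted p = 0.727) that was -0.16 without TMM factors.

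Retrotransposons of the copia type differed widely in their reads. A count was found for 21 of the 30 features with a copia or Gag-Pol match and for 87 of the 122 with AT4G23160 as best match, and 43.3% and 25.4% passed the filter, against 19.9% of all arm features. Among the named elements, most ONSEN copies and EVADE had few or no counts. Of the 7 ONSEN copies on the arms 5 had 0 counts in every library, AT3G61330 had 1 count in WT replicate 3, and AT5G13205 (chr5:4208521-4212591, minus strand) had 43, 28 and 43 counts in WT and 0 and 63 in hdl. The windows printed above are 96.3 to 99.3% identical to that of AT5G13205 in the other 6 copies, so reads cannot be assigned to a single copy with certainty. AT5G13205 lies 232 bases from AT5G13200, a gene on the opposite strand. Its hdl libraries stood on either side of WT, with 2.12, 1.67 and 1.68 CPM in WT and 0 and 3.64 in hdl. The log2 change of -0.02 ± 1.62 (SE; edgeR adjusted p = 0.992) was 1.00 without hdl replicate 1.

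EVADE (AT5G17125) had 1 count in hdl replicate 2 and 0 in the other libraries, which is within the floor of 3 reads. RE2 (AT4G02960) had 21, 0 and 12 counts in WT and 12 and 2 in hdl, with no separation. AT2G17490 (chr2:7598985-7602121, minus strand), which matched the same protein as ONSEN at 36.4% identity and carries the primer site, had 33, 111 and 17 counts in WT and 0 in both hdl libraries. Against a floor of 3 reads per hdl library its level was at least 16.5-fold lower in hdl. This bound rests on WT replicate 2, at 6.64 CPM against 1.63 and 0.664 in the other WT libraries, and it was 6.35-fold without that library. It did not pass in edgeR (adjusted p = 0.221), but DESeq2 called it (adjusted p = 0.00332), as did edgeR without either hdl library.

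The 122 features with AT4G23160 as best match, which include these elements, summed to 99.6, 125 and 108 CPM in WT and 74.2 and 73.1 in hdl. The 93 features with the primer site had 87.5 ± 14.9 CPM in WT and 64.6 ± 0.680 in hdl, with hdl below WT in every library (exact p = 0.2 for the means).

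Among features with matches to retrotransposon enzymes, the 72 with a reverse transcriptase match had 86.8, 72.8 and 86.7 CPM in WT and 85.8 and 74.7 in hdl, which overlap (exact p = 0.8), while the 82 with a ribonuclease H match had 117, 99.5 and 123 in WT and 58.9 and 74.6 in hdl. Over the 9 groups of best protein match the smallest adjusted exact p was 0.129, and over the 5 classes of the annotation text with a count, one of which holds the 745 features with no class named, it was 0.25. AT5G55896 had 30.0, 30.0 and 35.1 CPM in WT and 28.4 and 28.3 in hdl. AT3G28160 (chr3:10494656-10496791) had 14.1, 4.60 and 13.6 in WT and 26.1 and 21.7 in hdl, above all WT libraries, with a log2 change of 1.15 ± 0.50 (SE; edgeR adjusted p = 0.344). AT1G25430, also with a reverse transcriptase match, had 1, 2 and 1 counts in WT and 26 and 7 in hdl (edgeR adjusted p = 0.342).

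AT4G21420 (chr4:11405812-11407512), whose best match was a ribonuclease H-like protein at 29.3% identity, had 43.5, 23.3 and 44.1 CPM in WT and 12.2 and 11.6 in hdl. The hdl libraries lay close together and below WT, with a log2 change of -1.63 ± 0.35 (SE; edgeR adjusted p = 0.186). It was called by DESeq2 (adjusted p = 0.0181) and by edgeR without either hdl library. It overlaps a gene on the opposite strand. AT1G20390 (chr1:7065494-7071561), 252 bases from the nearest gene, had 86.7, 77.0 and 93.7 CPM in WT and 45.1 and 44.9 in hdl. Its log2 change was -0.93 ± 0.17 (SE; edgeR adjusted p = 0.186), set against the median of -0.71 over all tested features, and it was called by DESeq2 (adjusted p = 0.0171), in the fit with the genes and without either hdl library. AT3G60930 (chr3:22514027-22516871), the most abundant arm feature, matched a myosin heavy chain-like protein best, at 31.4% identity. It had 188, 219 and 194 CPM in WT and 118 and 134 in hdl. Its log2 change was -0.67 ± 0.14 (SE; edgeR adjusted p = 0.186), close to the median.

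AT1G10160 had 42.4, 35.2 and 49.96 CPM in WT and 9.11 and 23.1 in hdl, and it lies 34 bases from NFXL1 on the opposite strand. AT4G20730, with 25.1, 22.8 and 23.0 CPM in WT and 20.5 and 30.6 in hdl, did not separate the genotypes. AT3G10100, which has the same best protein match, was at 23.4, 22.4 and 23.9 in WT and 14.3 and 13.9 in hdl. AT4G32205 had 25, 11 and 29 counts in WT and 4 and 1 in hdl, the latter at 0.125 and 0.058 CPM. DESeq2 called it (adjusted p = 0.0223), while edgeR did not (adjusted p = 0.326).

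Sadhu elements, retrotransposons found in Arabidopsis and not known to encode a protein, were low in hdl replicate 1 above all. The 8 on the arms summed to 80.3, 93.5 and 75.2 CPM in WT and 20.0 and 57.3 in hdl. Both hdl libraries lay below WT (83.0 ± 9.44, n = 3, and 38.6 ± 26.4, n = 2; exact two-sided permutation test, p = 0.1), and all 5 tested elements had a log2 change below 0. SADHU7-1 (AT3G13438) overlaps an opposite-strand gene and had 32.8, 35.0 and 29.1 CPM in WT, 1.62 in hdl replicate 1 and 24.98 in hdl replicate 2. SADHU1-2 (AT1G30835, chr1:10966907-10968878), which lies 3676 bases from the nearest gene, had 20.3, 30.5 and 22.2 CPM in WT and 11.6 and 9.13 in hdl. Here the hdl libraries were close to each other, with a log2 change of -1.23 ± 0.29 (SE; edgeR adjusted p = 0.205), called by DESeq2 (adjusted p = 0.0428). SADHU10-1 (AT3G58865), which overlaps an opposite-strand gene too, had 21, 35 and 45 counts in WT and 6 and 5 in hdl. In CPM this is 1.03, 2.09 and 1.76 against 0.187 and 0.289, with hdl replicate 1 at the floor of 3 reads. DESeq2 called it (adjusted p = 0.0164), while edgeR did not (adjusted p = 0.325). Sadhu4-2 had 434, 349 and 475 counts in WT and 208 and 359 in hdl, and SADHU6-1 had 98, 84 and 93 in WT and 0 and 37 in hdl; SADHU5-1 and SADHU8-1 had 0 in every library, and SADHU9-1 had 2 counts in hdl replicate 1.

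Of 2 features of the VANDAL21 (Hiun) element, AT2G23480 had 2, 5 and 7 counts in WT and 0 in both hdl libraries. Against the floor of 3 reads per hdl library its level was at least 1.24-fold lower, and 1.03-fold without WT replicate 2. It did not pass in edgeR (adjusted p = 0.344), and its best match was an En/Spm-like protein at 54.9% identity. The other feature, AT2G23500, matched a MuDR transposase and had 0 in every library. Among features with both hdl libraries above WT, AT3G17050 had no protein match. It was at 5.57, 6.88 and 6.02 CPM in WT and 14.5 and 9.83 in hdl (edgeR log2 change 0.99 ± 0.31, SE, adjusted p = 0.326). AT5G19097 and AT3G62455 had AT4G23160 as best match, as did the ONSEN copies, at 53.3% and 35.7% identity. AT5G19097 had 2, 0 and 8 counts in WT and 20 and 18 in hdl. These are 0.099, 0 and 0.313 CPM against 0.624 and 1.04 (edgeR adjusted p = 0.434). AT3G62455 had 3.89, 3.47 and 7.23 CPM in WT and 7.67 and 8.56 in hdl (edgeR adjusted p = 0.435). AT2G29165, with a Gag-Pol match, had 7, 0 and 0 counts in WT and 12 and 12 in hdl. As counts of hdl replicate 1 are 2 per read, this is 0.345, 0 and 0 CPM against 0.374 and 0.694 (edgeR adjusted p = 0.571). AT5G52055, with a copia polyprotein match, had 7, 0 and 4 counts in WT and 22 and 7 in hdl. In CPM this is 0.345, 0 and 0.156 against 0.686 and 0.405 (edgeR adjusted p = 0.588). AT3G20085, an annotated copia-like feature, had 4 counts in WT replicate 3 and 0 elsewhere.

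**Figure D4:**
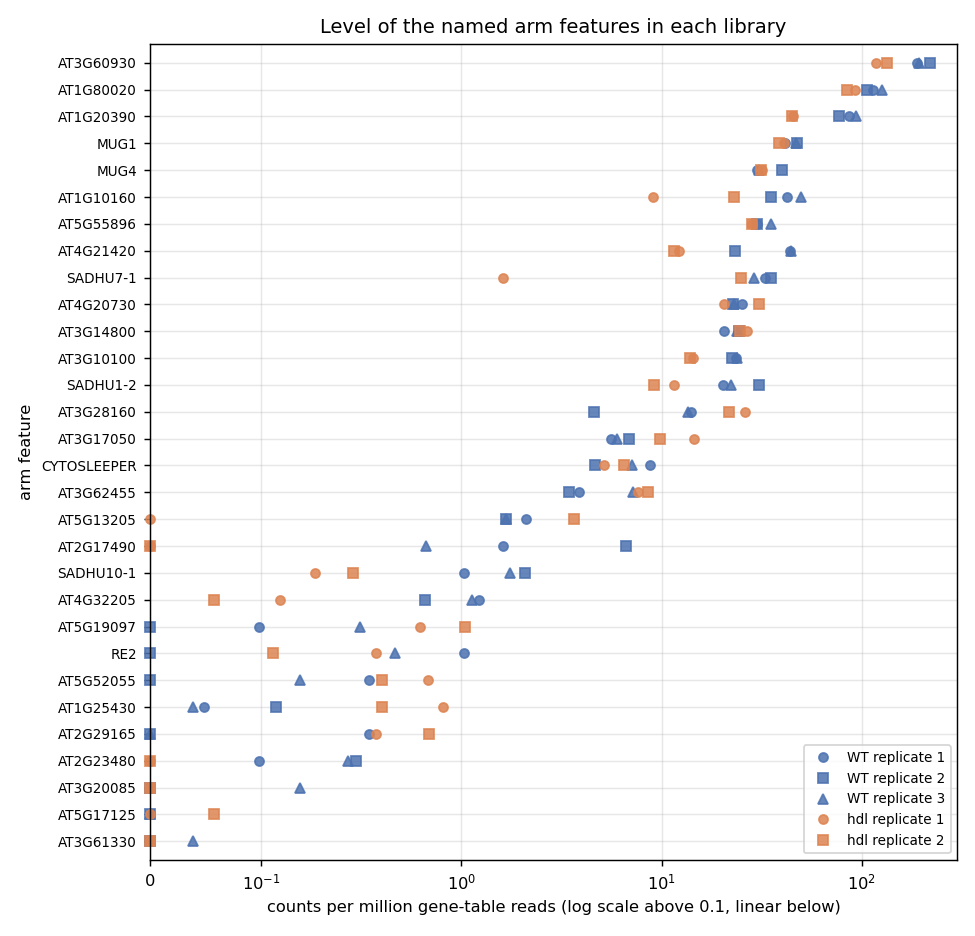
Level of the named arm features with a count in each library, in CPM (log scale above 0.1, linear below), with blue symbols for WT and orange symbols for hdl. Levels span from 0 to 219, and AT1G20390, AT4G21420 and SADHU1-2 show hdl symbols close together and left of WT, while SADHU7-1 and AT5G13205 show hdl libraries far apart.

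**Figure D5:**
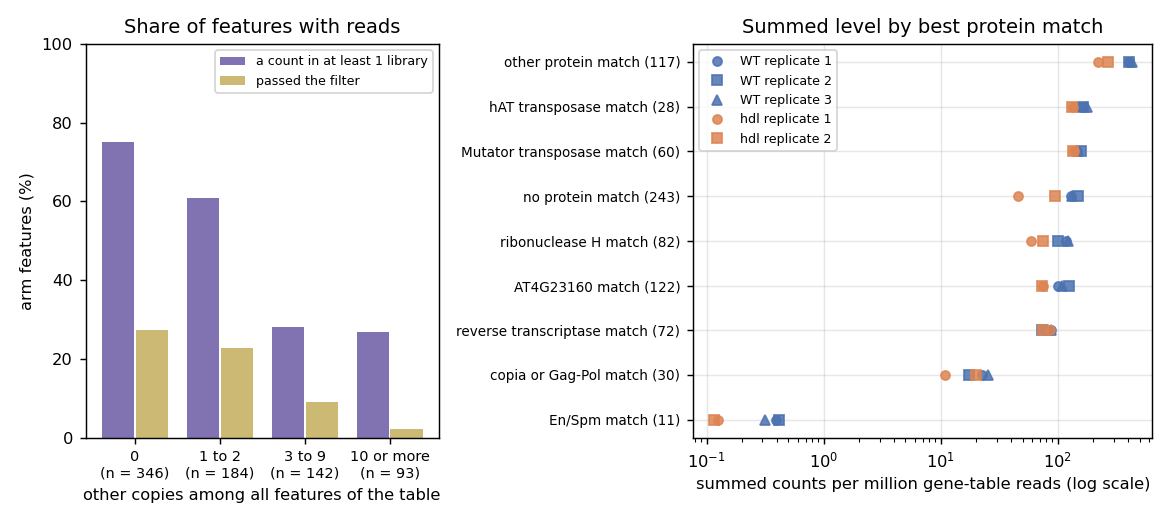
Left, share of arm features (%) with a count and share that passed the filter, by the number of other copies among all 3903 features; right, summed level of arm features by best protein match in each library (CPM, log scale). The share with a count is 75.1% without other copies and 26.9% with at least 10; the reverse transcriptase group overlaps between genotypes, and the groups other than that and the copia or Gag-Pol group show both hdl libraries below WT.

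The list of genes related to transposon silencing, which also holds ROS1, DME and IBM1 that act against it, gave a single call. Of 34 genes of DNA methylation and transposon silencing in the gene table, limma on log2(value + 1) with Benjamini-Hochberg adjustment called 1 lower in hdl and 0 higher; the shares over all genes were 4.5% and 8.21%. CLSY1, a remodelling factor that recruits RNA polymerase IV, had 284, 322 and 300.2 normalized counts in WT and 119 and 117 in hdl. Its log2 change was -1.35 ± 0.21 (SE; limma adjusted p = 0.0148). SHH1, which binds histone marks in the same step, had a log2 change of -1.48 (limma adjusted p = 0.0701), and the methyltransferase genes MET1 and CMT3 had changes of -0.40 and -0.06 (adjusted p = 0.315 and 0.904). The median of the list was -0.33 and that of all tested genes -0.05. The count of lower calls was 0 without WT replicate 1, WT replicate 3 or hdl replicate 1, and 7 without WT replicate 2. Over all genes the shares called lower in those fits were 0.942%, 0.345%, 0% and 11.4% in the same order. With libraries scaled to equal totals 12 of the list and 12.5% of all genes were called lower. The relation of CLSY1 to the arm features was not tested.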

How the data were processed

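RNA-seq of 3 WT and 2 hdl libraries was analysed from the files the authors deposited. Per the submitters' processing notes the reads were handled on TAIR10, and Bowtie2 2.5.0, SAMtools 1.16.1, Trimmomatic 0.33 and DESeq2 are among the tools listed, without roles. The program that counted reads, its strand setting and its treatment of reads with several matches are not stated. The authors deposited raw counts for 3903 features, used as deposited, and a gene table whose values are a signal, counts divided by size factors per the file headers and the name of the file. All 3903 identifiers were found in the RefSeq annotation of TAIR10.1, which gave coordinates and sequences; the deposited files hold no coordinates. Reads with no feature were 91.7 to 94.7% of the raw table's total and stayed out of all tests.

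Dividing each library's gene-table values by their smallest step gave whole numbers for 100% of them within 0.01. The recovered reads numbered 18929251, 15418154 and 22838239 in WT replicates 1 to 3 and 18316092 and 19741801 in hdl replicates 1 and 2. The deposited size factors matched recomputed ones only with hdl replicate 1 at 2 counts per step, and its raw counts hold only even numbers. Features were tested with edgeR 4.0.16 (glmQLFit, glmQLFTest, R 4.3.3) without covariates. Library sizes were the recovered gene reads times their TMM factors, and the filter was at least 5 reads in at least 2 libraries. P-values were adjusted by Benjamini-Hochberg over arm and pericentromeric features, with calls at 0.05. Genes were tested with limma 3.58.1 on log2(value + 1), for genes with at least 10 in at least 2 libraries. That test called 1674 genes higher and 917 lower, and edgeR on the recovered reads called 1651 and 816. With libraries scaled to equal totals limma called 994 higher and 2553 lower, and without hdl replicate 1 it called 0 in either direction. Sums and shares were compared with an exact two-sided permutation test over 10 arrangements. Adjusted p-values in the text name their tool.

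BLAST 2.17.0 matched features to annotated proteins (E-value 1e-10) and to each other (80% identity over 50% of the length). Protein-match groups were added after the data had been seen, since the annotation names few classes. On simulated tables, each with the same dispersion throughout, edgeR gave the shares stated with the single-feature test, and limma found 77 of 100 genes changed 4-fold. The features named are those called, of which there were none, the 10 most abundant, up to 8 per direction with the smallest p among those whose libraries do not overlap, 2 per annotated class, and copies of textbook elements. The members, lists and rules were chosen with earlier results of these data known. Alternatives changed the tool, scaling, filter, feature set, replicate block and libraries.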

Additional observations from a re-analysis of the deposited data

How the results depend on the processing

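The number of arm features called lower was 0 with edgeR and stayed 0 under every scaling, under a stricter filter and without features near or overlapping genes. It was 6 with DESeq2, 8 without a filter, 5 in the fit with the genes, and 0 to 23 when a library was left out (7 without hdl replicate 1, 23 without hdl replicate 2). The number called higher was 0 to 2 when a library was left out. The median log2 change of the tested arm features stayed below 0 in all 19 alternatives, from -1.07 to -0.43. The log2 ratio of summed arm levels was -0.54, and -0.86 to -0.29 over the alternatives. The value of -0.29 was with whole-table totals, where it was -0.84 once even feature counts were halved. The summed Mutator-like class turned to 0.17 with whole-table totals and even counts not halved.

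The difference in arm share, 1.51 points, turned to -1.33 without the 10 most abundant features of each region, to -6.40 for annotated transposons alone (exact p = 0.1) and to -1.51 without features that overlap an opposite-strand gene; leaving out a library gave -0.55 to 3.58, with -0.17 without WT replicate 2 and -0.55 without hdl replicate 1. The cause was not tested.

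Of 27 named features 8 changed sign somewhere. With feature totals MUG1 was at 0.15, MUG4 at 0.25, AT5G55896 at 0.17, CYTOSLEEPER at 0.076 and AT5G13205 at 0.30. With whole-table totals MUG1 was at 0.10, MUG4 at 0.19 and AT5G55896 at 0.11. Once even feature counts were halved there, these features were at -0.49, -0.39 and -0.47. Without TMM factors AT4G20730 was at -0.21 and AT3G14800 at -0.16. With whole-table totals and even feature counts halved they were at -0.18 and -0.14. AT5G13205 was at 0.0013 with even counts halved. Leaving out a library gave -0.15 to 0.058 for MUG4, -0.21 to 0.37 for AT4G20730, -2.07 to 0.082 for RE2, -0.45 to 0.0090 for CYTOSLEEPER and -8.44 to 1.00 for AT5G13205, which was at 0.12 without WT replicate 1 and also at 1.00 in the fit with the genes without hdl replicate 1. The value of -8.44, without hdl replicate 2, passed (edgeR adjusted p = 0.000475) and rests on the count of 0 in hdl replicate 1. RE2 was at 0.20 with the replicate block. No value of the turned sign passed the threshold.

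WT and hdl share only replicate numbers 1 and 2, and same-numbered libraries deviated with correlations of 0.064 and 0.058. With 2 hdl libraries the deviations from their mean mirror each other, so these values cannot decide whether the numbers pair the samples. With the replicate block edgeR called 0 arm features and limma 0 silencing genes and 0 genes. Silencing genes called lower were 12 with libraries scaled to equal totals and 0 to 7 when a library was left out, and 0 to 1 were called higher; all genes called lower were 2553 and 0 to 2295 in these fits.

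Most arm features have few reads: 328 of 765 had none and 152 passed the filter, and a count of 0 allows up to 3 reads per library, 0.117 to 0.187 CPM, counting error only. Counts of features with near-identical copies or opposite-strand neighbours are uncertain.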
